A study of Rattus norvegicus with 12 samples.

Results

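Amino acid transporters of 7 solute carrier families were described in epididymal fat of young rats. The families are SLC1, SLC3, SLC6, SLC7, SLC36, SLC38 and SLC43, and a probe belonged to them when its gene symbol in the array's probe-to-gene table began with the name of one of these families. This rule found 55 probes for 53 gene symbols, among 22523 probes of which 13793 have a symbol. It also takes in carriers of taurine, creatine and monoamines in SLC6, and Slc7a6os, the opposite-strand neighbour of Slc7a6, which is not a carrier.

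The tissue came from 12 male Sprague-Dawley rats aged 40 days, of which 6 are labelled as having had food removed for 6 h and 6 as fed ad lib, with no genetic change or drug in either group. RNA of whole fat pads was hybridised to 12 arrays of 1 Illumina RatRef-12 chip, 1 array per sample, and the fluorescence of each probe was set against negative control probes to give a detection p-value. The deposited signals were background corrected, quantile normalised and put on a log2 scale, and a probe was called detected on an array at a detection p under 0.05. The clock time of food removal differs between the labels and the study's methods, and the study's text gives a longer time without food than the labels.

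Cells take up amino acids through carriers with overlapping substrates. Most SLC1, SLC6 and SLC38 carriers bring them in with sodium, SLC36 carriers with protons, and the SLC7 light chains exchange one amino acid for another when joined to a heavy chain of SLC3. White fat takes up and releases glutamine, alanine and branched-chain amino acids, and the carriers also feed the lysosomal sensing of amino acids by mTORC1, a kinase complex that promotes growth. Expression of several of these carriers is known to respond to amino acid shortage through ATF4, a transcription factor.

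Of the 53 genes, 40 were detected on at least 6 of the 12 arrays, and 28 on all 12 arrays. By probe this was 72.7% of the 55 probes of these families, against 54.1% of all 22523 probes on the array. Every probe of these families has a gene symbol by the rule used, but only 13793 of all probes have one. The share detected among probes with a symbol was not computed. Whether the higher share is particular to transporters was therefore not tested. At the stricter detection p under 0.01 on at least 6 arrays, 34 genes remained. The genes detected on all 12 arrays covered every family and included the glutamate carriers Slc1a1, Slc1a3 and Slc1a6, the glutamine and serine exchanger Slc1a5, both heavy chains Slc3a1 and Slc3a2, and the carriers of serotonin (Slc6a4), taurine (Slc6a6), creatine (Slc6a8) and glycine (Slc6a9). They also included the light chains Slc7a6, Slc7a7 and Slc7a10, Slc7a4, Slc7a14 and Slc7a15 of SLC7, the proton-coupled Slc36a4, all 3 SLC43 genes, Slc7a6os, and Slc38a1, Slc38a2, Slc38a4, Slc38a5, Slc38a6, Slc38a7 and Slc38a10 of the sodium-coupled family.

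A further 12 genes were detected on 6 to 11 arrays. These were Slc1a2, a glutamate carrier of astrocytes, Slc1a4, a carrier of small neutral amino acids, Slc36a1 and Slc38a9, both of lysosomal membranes, Slc6a13 (GABA), Slc6a2 (noradrenaline) and Slc6a7 (proline), the cationic amino acid carriers Slc7a1 and Slc7a2, and the light chains Slc7a5, Slc7a8 and Slc7a9. Slc7a5, the leucine-carrying light chain, was detected on all 6 food removed arrays and 4 of the 6 ad lib arrays, and Slc36a1 on 6 and 3.

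Slc36a3, Slc38a3, Slc6a15, Slc6a20a, Slc7a11 and Slc7a13 were detected on 1 to 5 arrays. Slc7a11, the cystine-glutamate exchanger, reached detection on 1 array only, food removed replicate 3. The 7 genes detected on no array were Slc38a8, Slc6a11 (GABA), Slc6a14 (neutral and cationic amino acids), Slc6a18 (a kidney carrier), Slc6a3 (dopamine), Slc6a5 (the glycine carrier of neurons) and Slc7a3 (cationic amino acids). A probe that was not detected sets only a bound by the negative controls and does not show that the RNA is absent. Slc1a5 and Slc36a3 each had a second probe, and both second probes were detected on no array, so the probes of Slc1a5 disagreed. The gene table of the rat assembly GRCr8 lists 66 protein-coding genes with such names, and the 13 with no named probe, among them Slc1a7, Slc36a2, Slc6a12 and Slc6a19, were not analysed here.

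**Figure D1:**
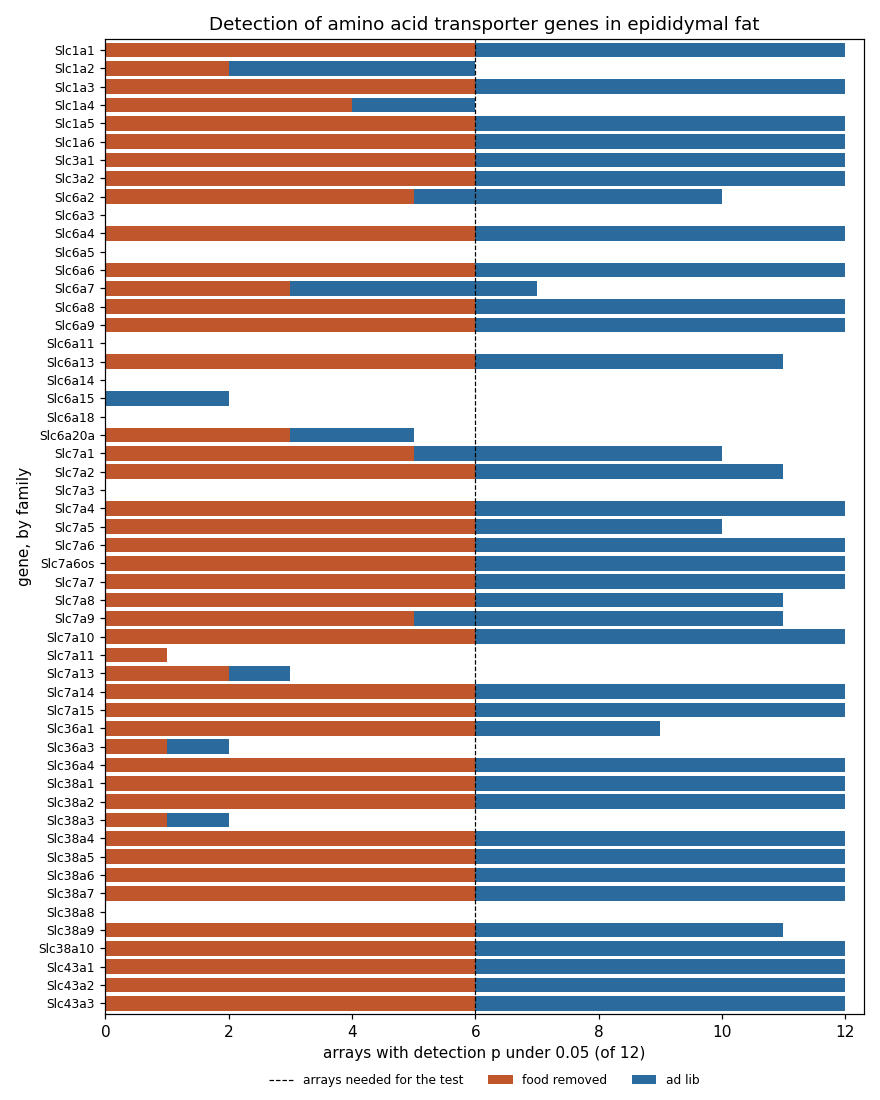
Horizontal bars give the number of arrays, of 12, on which each of the 53 genes was detected at p under 0.05, split into the 6 food removed and the 6 ad lib arrays; a gene with 2 probes is shown by its brighter one. The dashed line marks the 6 arrays needed for the test, which 40 genes reached, and 7 genes have no bar.

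The fat itself was checked with markers. All 7 adipocyte markers with a probe were detected on every array, and Adipoq, the adipokine adiponectin, ran from 13.32 to 14.27 on the log2 scale. The summed signal of the 7 was lowest on food removed replicate 3, at 48110 against 58070 to 83640 on the other arrays. Markers of the epididymis, the duct that lies beside this fat pad, were on some arrays too. Of 35 listed epididymis genes 21 had a probe, and 19 of them were detected on food removed replicate 3, 12 on food removed replicate 4 and 4 to 10 on the other arrays. The summed signal of that list ran from 8265 to 199900 in the food removed arrays and from 5637 to 19090 in the ad lib arrays. Lcn5, an epididymal lipocalin, was at 14.49 in food removed replicate 3, 11.17 in replicate 5 and 8.96 in replicate 4, at 11.15 in ad lib replicate 6, and at 4.59 to 6.28 on the other arrays. These 4, called the marker arrays below, were set by Lcn5 alone, at a log2 signal above 8. On food removed replicate 5 and ad lib replicate 6, 8 and 9 of the 21 genes were detected, no more than on arrays outside the 4. Leaving out the 4 marker arrays, a choice made after the values were seen, leaves 3 food removed and 5 ad lib arrays. The values that move most are given below with and without them. In such whole tissue, fewer cells of a type and less RNA per cell cannot be told apart.

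The main comparison asked which carriers differ after food was removed. Over the 12196 tested probes, 301 passed limma's moderated test at an adjusted p under 0.05 (2.47%; Benjamini-Hochberg over all of them), 128 of them higher (1.05%) and 173 lower (1.42%) with food removed. Among the 40 tested transporter genes 1 was higher and 0 were lower, a share near that of all probes. At an unadjusted p under 0.05 there were 7, of which 3 were higher and 4 lower, beside 15.9% of all tested probes. For 0 of the 40 the arrays of both groups did not overlap, beside 2.5% of all tested probes. The median log2 difference of the 40, food removed minus ad lib, was 0.05 with 24 above 0 and 16 below, and that of all tested probes was -0.02. All directions follow the GEO labels. Under these labels the fasting genes Angptl4 and Pdk4 had log2 differences of -2.08 (-0.67 on a second probe) and -2.95. The study gives the reverse direction for these genes, and group names here are those of the labels. Which is right was not settled here.

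**Figure D2:**
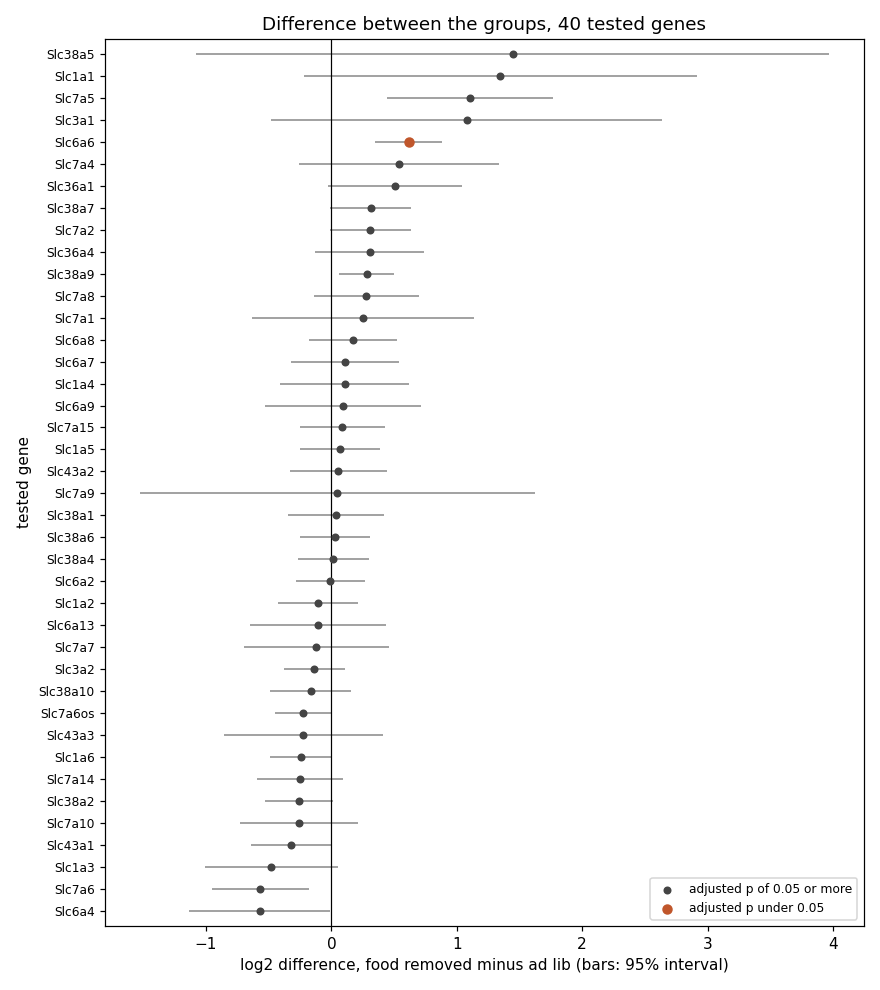
Points give the log2 difference of each of the 40 tested genes, food removed minus ad lib, and lines its 95% interval from limma. Slc6a6, at 0.62, is the single gene with an adjusted p under 0.05, and Slc38a5, Slc1a1, Slc3a1 and Slc7a9 have the widest intervals.

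Slc6a6, the sodium- and chloride-coupled carrier of taurine, was higher in the food removed group. Its log2 signals in food removed replicates 1 to 6 were 9.28, 9.33, 8.81, 9.08, 9.27 and 9.43, and in ad lib replicates 1 to 6 they were 8.71, 8.34, 8.61, 8.81, 8.50 and 8.50. The groups touched only where food removed replicate 3, the array with the highest epididymis signal, met ad lib replicate 4. The means were 9.20 ± 0.22 and 8.58 ± 0.17 (SD, n = 6 arrays each), a log2 difference of 0.62 (SE 0.12, 95% interval 0.35 to 0.88), or 1.53-fold, with adjusted p = 0.0171 from limma and exact two-sided permutation p = 0.00433. Without the 4 arrays with epididymis markers the difference was 0.75 (adjusted p = 0.0193 from limma), with 9.28 to 9.43 in the food removed group and 8.34 to 8.81 in the ad lib group, which then did not overlap. The call was lost without ad lib replicate 5 (0.60, adjusted p = 0.0525), with a median shift (0.61, adjusted p = 0.165), with the replicate block (adjusted p = 0.0915) and with chip position as a covariate (0.59, adjusted p = 0.242). Position on the chip nearly coincides with the group, since the food removed arrays lie at positions 1 and 3 to 7 and the ad lib arrays at 2 and 8 to 12. Over 24 alternatives the difference stayed between 0.53 and 0.75 and passed in 20.

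The promoters of Slc6a6 and of the Slc3a1 and Slc7a9 pair described further on are shown, since one is the called gene and the others are partners that were high on the same arrays. RefSeq promoters of build GRCr8, 250 bases before to 50 after the annotated start, were found for 40 of the 53 genes. Capitals mark TATAAA, the TATA box letters, on either strand.
Slc6a6, chr4:125752252-125752551, + strand: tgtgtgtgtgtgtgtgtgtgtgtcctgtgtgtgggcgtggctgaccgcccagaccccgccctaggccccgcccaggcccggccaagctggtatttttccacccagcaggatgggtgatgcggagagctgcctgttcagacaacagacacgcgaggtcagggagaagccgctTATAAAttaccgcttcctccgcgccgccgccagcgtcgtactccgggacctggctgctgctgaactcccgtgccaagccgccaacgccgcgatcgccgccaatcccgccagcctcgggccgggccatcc
Slc3a1, chr6:15394700-15394999, - strand: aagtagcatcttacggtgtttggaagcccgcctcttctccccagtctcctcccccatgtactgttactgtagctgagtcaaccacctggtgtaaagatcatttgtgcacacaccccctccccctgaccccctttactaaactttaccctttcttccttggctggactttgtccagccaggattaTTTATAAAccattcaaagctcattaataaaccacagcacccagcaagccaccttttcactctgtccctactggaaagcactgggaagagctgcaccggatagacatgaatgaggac
Slc7a9, chr1:97246632-97246931, + strand: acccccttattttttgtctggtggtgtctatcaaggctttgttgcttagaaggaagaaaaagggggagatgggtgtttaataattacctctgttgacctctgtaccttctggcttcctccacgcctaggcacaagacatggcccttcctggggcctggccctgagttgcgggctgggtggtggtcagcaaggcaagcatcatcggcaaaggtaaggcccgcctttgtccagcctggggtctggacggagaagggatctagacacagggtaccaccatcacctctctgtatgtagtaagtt
The Slc6a6 match begins 79 bases before the start. In Slc3a1 overlapping matches on the opposite strands begin 66 and 64 bases before it, and the Slc7a9 window holds none. TATAAA was in 3 of the 35 promoters of detected genes (8.57%: Slc3a2, Slc6a6 and Slc3a1) and in 14.2% of 33469 promoters, and this motif was chosen after the sequences were seen. TGATGNAA on both strands, the core to which C/EBP and ATF factors bind in amino acid response elements, was also in 3 of 35 (8.57%: Slc38a1, Slc7a1 and Slc1a4) against 3.98% of all promoters, and in none of the sequences printed here. A match describes letters in this window only.

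The light chains gave the next lowest p-values. Slc7a5 forms with Slc3a2 the exchanger LAT1, which carries leucine and other large neutral amino acids. Its signal was 6.31 to 8.17 (median 6.51) in the food removed group and 5.08 to 6.46 (median 5.68) in the ad lib group, a log2 difference of 1.10 (SE 0.31, 95% interval 0.44 to 1.77) with adjusted p = 0.0822 from limma. Apart from food removed replicate 3 at 8.17 the food removed arrays lay between 6.31 and 6.72, and ad lib replicate 3, at 6.46, was the one ad lib array within that range. With array weights, which lower the weight of noisier arrays, Slc7a5 passed (1.00, adjusted p = 0.0123), and it passed with the replicate block (adjusted p = 0.0212), whereas without the 4 arrays with epididymis markers the difference was 0.88 (adjusted p = 0.139). With chip position as a covariate it was 1.11 (adjusted p = 0.433). The labels do not say that replicate numbers pair the rats. Over 23 alternatives the adjusted p of Slc7a5 ran from 0.0123 to 0.433.

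Slc7a6, the light chain of another exchanger that gives out cationic for neutral amino acids, pointed the other way. It measured 9.82 to 10.73 (median 10.32) with food removed and 10.50 to 11.28 (median 10.86) in the ad lib group. The log2 difference was -0.57 (SE 0.18, 95% interval -0.95 to -0.18; adjusted p = 0.125 from limma), and only food removed replicate 4 reached the ad lib range. With chip position as a covariate it was -0.30 (adjusted p = 0.76). Its neighbour on the chromosome, Slc7a6os, differed by -0.22 (adjusted p = 0.316). A value that did not pass does not show that the groups were alike.

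Of the other genes with an unadjusted p under 0.05, Slc38a9 is the lysosomal carrier through which arginine is sensed by mTORC1. It was at 5.45 to 5.68 (median 5.58) with food removed and 5.07 to 5.57 (median 5.26) in the ad lib group, with a log2 difference of 0.28 (SE 0.10, 95% interval 0.06 to 0.50; adjusted p = 0.183 from limma). These values are dim, and Slc38a9 was detected on 5 of the 6 ad lib arrays. Slc43a1, a sodium-independent carrier of branched-chain amino acids, was at 5.62 to 6.46 (median 6.28) and 6.35 to 6.87 (median 6.48), a difference of -0.32 (SE 0.15, 95% interval -0.64 to -0.01; adjusted p = 0.305). The lowest of these was again food removed replicate 3, and without the 4 marker arrays the difference was -0.22 (adjusted p = 0.528). Slc6a4, the serotonin carrier, was at 5.75 to 7.16 (median 6.74) and 6.57 to 7.90 (median 7.25), a difference of -0.57 (SE 0.26, 95% interval -1.14 to -0.01; adjusted p = 0.307). Slc1a6, a glutamate carrier best known from Purkinje cells, was at 5.52 to 5.72 (median 5.64) and 5.59 to 6.14 (median 5.85), a difference of -0.25 (SE 0.11; adjusted p = 0.308). In each of the 4 the groups overlapped.

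**Figure D3:**
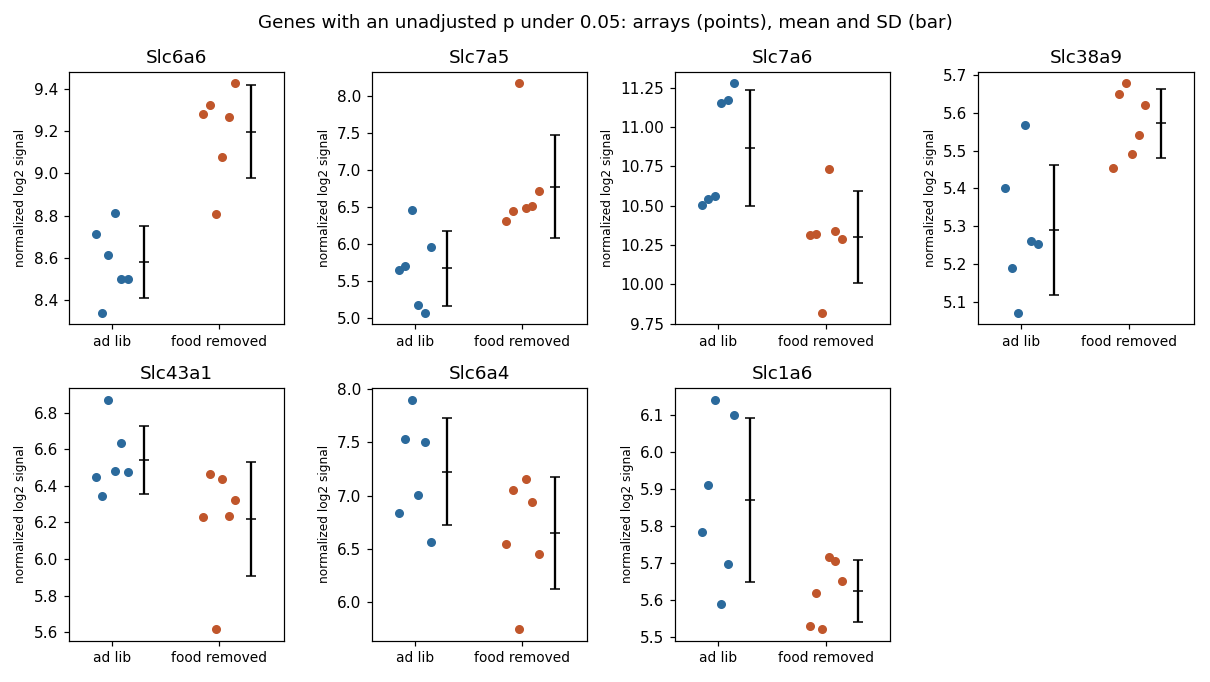
Points are the normalised log2 signals of the 6 ad lib and the 6 food removed arrays for the 7 genes with an unadjusted p under 0.05, with the mean and SD beside them; each panel has its own axis range. Slc6a6 runs from 8.34 to 8.81 in the ad lib arrays and from 8.81 to 9.43 in the food removed arrays, and food removed replicate 3 stands apart in Slc7a5 at 8.17.

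Family by family the remaining genes had smaller differences or a wide spread. In SLC1 the difference was -0.48 for Slc1a3, the glutamate carrier GLAST (10.44 to 12.06 against 11.70 to 12.56; adjusted p = 0.366 from limma; -0.26 without the 4 marker arrays), 0.07 for Slc1a5, 0.11 for Slc1a4 and -0.10 for Slc1a2. In SLC38, Slc38a2, the adaptive system A carrier, was at 12.05 to 12.50 (median 12.25) with food removed and 12.15 to 12.81 (median 12.52) in the ad lib group, with a difference of -0.26 (SE 0.13, 95% interval -0.53 to 0.01). Its relatives Slc38a1 (0.04), Slc38a4 (0.02), Slc38a6 (0.03), Slc38a7 (0.31) and Slc38a10 (-0.16) did not pass either, and without the 4 marker arrays Slc38a1 turned to -0.03, Slc38a4 was at 0.19 and Slc38a10 at -0.02. For Slc38a4 the 95% interval was -0.26 to 0.30, and for Slc38a6 -0.25 to 0.31.

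In SLC6 the creatine carrier Slc6a8 differed by 0.17 (8.76 to 9.25 against 8.32 to 9.22), the glycine carrier Slc6a9 by 0.09, the proline carrier Slc6a7 by 0.11, Slc6a13 by -0.11 and the noradrenaline carrier Slc6a2 by -0.01. Of the SLC7 genes listed by subfamily with the cationic carriers, Slc7a1, Slc7a2, Slc7a4 and Slc7a14 had differences of 0.25, 0.31, 0.54 and -0.25. Food removed replicate 3 held the highest Slc7a1 (7.92) and Slc7a4 (8.20), and without the 4 marker arrays Slc7a1 was at -0.21, with its sign turned, and Slc7a4 at 0.01. Slc6a9 (-0.19), Slc6a13 (0.10) and Slc6a2 (0.12) also turned in sign without them, and Slc6a7 was at 0.41. The proton-coupled Slc36a1 and Slc36a4 differed by 0.51 and 0.30, and Slc43a2 and Slc43a3 by 0.06 and -0.22, with Slc36a1 at 0.35 and Slc43a2 at 0.29 without the marker arrays. None of these passed the test, and limma's adjusted p ran from 0.331 for Slc7a2 to 0.986 for Slc6a2. Of the remaining SLC7 genes, the light chains Slc7a7, Slc7a8 and Slc7a10 differed by -0.12, 0.28 and -0.26 and Slc7a15 by 0.09, with limma's adjusted p from 0.53 (Slc7a8) to 0.882 (Slc7a7). Without the 4 marker arrays Slc7a7 was at -0.25, Slc7a8 at 0.05 and Slc7a10 at -0.10.

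The heavy chain Slc3a2 had the narrowest range over the 12 arrays of the 40 tested genes (0.60), at 11.39 to 11.84 (median 11.71) with food removed and 11.57 to 11.99 (median 11.82) in the ad lib group, a difference of -0.14 (95% interval -0.38 to 0.11). Slc3a2 carries its light chains to the cell surface. Across the 12 arrays it was set against its 5 tested light chains. With Slc7a10, the alanine, serine and cysteine exchanger known as a surface protein of white adipocytes, Pearson's r was 0.62 (permutation p = 0.0313, adjusted over the 5 pairs 0.0783) and Spearman's rho 0.74 (permutation p = 0.00804, adjusted 0.0402), with r = 0.54 when ad lib replicate 5 and food removed replicate 6, farthest from the median of Slc3a2, were left out. Within the groups r was 0.43 (food removed) and 0.80 (ad lib). With Slc7a6 r was 0.64 (permutation p = 0.0262, adjusted 0.0783) and rho 0.46 (permutation p = 0.136, adjusted 0.227). That relation was not in both groups, with r = -0.06 in the food removed and 0.95 in the ad lib arrays, and r = 0.58 without the 2 farthest arrays. With Slc7a5 r was -0.47 (permutation p = 0.121, adjusted 0.202) and rho -0.60 (permutation p = 0.0432, adjusted 0.108), with Slc7a7 r was 0.42 and rho 0.19, and with Slc7a8 0.05 and 0.22. The 12 arrays share 1 chip and 1 normalisation.

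The widest spread was in genes that were high on the arrays with epididymis markers. The range over the 12 arrays exceeded 2 log2 units for 11 of the 40 tested genes (27.5%), against 7.04% of all tested probes. The median range was 1.21 for the 40 and 0.97 for all probes, and 0.89 and 0.77 without the 4 marker arrays. Food removed replicate 3 held the highest value of 9 of the 40 genes and the lowest of 10, and ad lib replicate 6 the highest of 7. The same shares over all tested probes were not computed, so whether these counts are particular to transporters was not tested.

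Slc38a5, a glutamine and histidine carrier of system N, was at 14.77 in food removed replicate 3 and at 5.98 to 7.93 in the other food removed arrays. In the ad lib group it was at 6.27 to 6.59 with 7.49 in replicate 6. Over all arrays its difference was 1.45 (SE 1.18, adjusted p = 0.606 from limma), and without the 4 marker arrays it was -0.24 (adjusted p = 0.464), with 5.98 to 6.50 against 6.27 to 6.59. Slc1a1, the glutamate and cysteine carrier EAAC1, was at 12.90 in food removed replicate 3 and at 7.78 to 8.90 in the others of that group, and the ad lib arrays ran from 6.95 to 7.98 with 9.13 in replicate 6. Its difference was 1.35 (SE 0.73, adjusted p = 0.394) over all arrays and 0.71 (adjusted p = 0.154) without the 4. Lcn5, Adam7, Gpx5 and Cst8, epididymal proteins, were also highest on food removed replicate 3, at 14.49, 14.44, 15.01 and 13.15. Their part in these values was not tested beyond leaving the arrays out.

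Slc3a1 and Slc7a9 are the heavy and light chain of the cystine and dibasic amino acid exchanger of kidney and intestine. Slc3a1 was at 10.44 and 11.09 in food removed replicates 3 and 5 and at 11.07 in ad lib replicate 6, and at 6.68 to 8.73 on the other 9 arrays. On the same 3 arrays Slc7a9 was at 8.35, 8.99 and 9.16, and at 4.94 to 6.28 on the others. Both chains therefore had their 3 highest values on the same 3 arrays, as did Slc1a1 (12.90, 8.90 and 9.13). Slc38a5 was at 14.77, 7.10 and 7.49 there, at 7.93 on food removed replicate 4 and at 5.98 to 6.59 on the others. Slc7a13, a light chain that pairs with Slc3a1 in mouse kidney, was at 5.16, 5.90 and 5.74 on the 3 arrays and at 4.36 to 4.61 elsewhere. Slc6a20a, a proline carrier of kidney and intestine, was at 5.91, 6.44 and 6.13 there and at 4.75 to 5.63 elsewhere, and Slc6a9 at 7.19, 7.02 and 7.08 against 5.67 to 6.48.

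The epithelial keratin genes Krt8 and Krt19, and Defb1 and Ces5a of the epididymis list, were high on the same 3 arrays. Of the 21 genes of the epididymis list, 8 and 9 were detected on food removed replicate 5 and ad lib replicate 6, within the 4 to 10 of the unmarked arrays, with Gpx5 at 4.75 and 4.85, Adam7 at 4.84 and 4.80 and Cst8 at 4.47 and 4.49. The summed signal of the 5 mesothelium markers with a probe, a list that holds both keratins, was also highest on these 3 arrays, at 12110, 11840 and 11820, against 4726 to 10670 elsewhere. Defb1 was at 10.85, 8.95 and 8.33 there and at 4.44 to 4.70 elsewhere, and Krt8 at 12.71, 11.83 and 12.03 against 9.37 to 10.06. The smooth muscle sum was also highest on these 3 arrays, at 3898, 3193 and 3566, against 1969 to 3030 elsewhere. The lymphocyte sum was highest on the 4 marker arrays, at 532.3 to 590.3 against 242 to 397.8. Macrophage, endothelial and red blood cell sums were not highest on any of them. On food removed replicate 3 these sums were the lowest of the 12 arrays, as was the adipocyte sum given above. The macrophage sum was 6526 there and 7286 to 13030 elsewhere. The endothelial sum was 7474 against 10250 to 17020, and the red blood cell sum 65390 against 65450 to 85000. The part of epididymal, mesothelial, other epithelial or any of these cells in these values was not tested. Without the 4 marker arrays Slc3a1 was at 8.27 to 8.73 with food removed and 6.68 to 8.39 in the ad lib group, a difference of 1.00 (adjusted p = 0.185 from limma; 1.08 over all arrays), and Slc7a9 at 4.94 to 5.80 and 5.61 to 6.28, a difference of -0.52 (adjusted p = 0.279; 0.05 over all arrays).

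**Figure D4:**
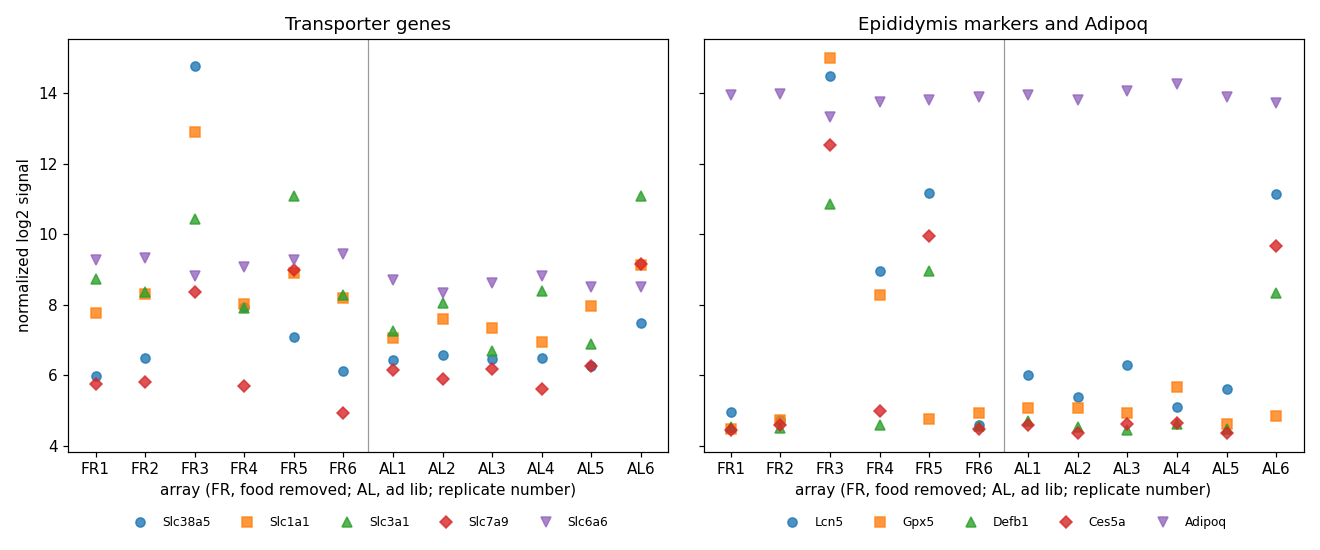
Normalised log2 signals on the 12 arrays (FR, food removed; AL, ad lib; number, replicate) of 5 transporter genes on the left and of 4 epididymis markers with the adipokine gene Adipoq on the right. Slc38a5 and Slc1a1 stand highest on FR3, where Lcn5 reaches 14.49, Slc3a1 and Slc7a9 are high on FR3, FR5 and AL6, and Adipoq stays between 13.32 and 14.27.

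Other genes of amino acid handling were taken from lists. Directions again follow the GEO labels, under which Angptl4 and Pdk4 run opposite to the study. Of 7 tested carriers of other families, 0 were higher and 0 lower, beside 1.05% and 1.42% of all tested probes. Slc16a10, a carrier of aromatic amino acids, came closest at 5.97 to 7.26 (median 6.25) with food removed and 6.80 to 7.79 (median 7.25) in the ad lib group, a difference of -0.83 (adjusted p = 0.0761 from limma; 0.0165 without the 4 marker arrays and 0.54 with chip position as a covariate). Of 3 tested partners and regulators of carriers 1 was lower, beside 1.42% of all tested probes. This was Sgk1, a kinase known to raise the surface abundance of several carriers, at 10.75 to 11.19 (median 10.98) against 11.50 to 11.93 (median 11.55), which did not overlap. It was lower by 0.68 on the log2 scale in the arrays labelled food removed (SE 0.11, adjusted p = 0.00723 from limma).

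Of 22 tested genes of amino acid sensing by mTORC1, 0 were higher and 1 was lower, beside 1.05% and 1.42% of all tested probes. The other 21 did not pass, and the median of the 22 was -0.06 (-0.02 over all tested probes). Flcn, folliculin, acts on the Rag GTPases that recruit mTORC1 to the lysosome. It was lower by 0.83 on the log2 scale in the arrays labelled food removed (SE 0.15, adjusted p = 0.00863 from limma). Flcn measured 9.28 to 10.15 there and 10.21 to 10.76 in the ad lib group. Leaving out any single array kept both calls, with adjusted p up to 0.022 for Sgk1 and 0.0273 for Flcn. With chip position as a covariate they were at 0.112 and 0.241. Of 19 tested enzymes of glutamine, serine, glycine and arginine 0 passed in either direction, beside 2.47% of all tested probes. Psph, the last enzyme of serine synthesis, differed by 0.44 (adjusted p = 0.0534 from limma; 4 of the 19 had an unadjusted p under 0.05, beside 15.9% of all tested probes).

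Of 12 tested genes of the amino acid stress response 1 was higher and 1 was lower, beside 1.05% and 1.42% of all tested probes. Trib3, a pseudokinase induced through ATF4, was at 5.26 to 7.07 (median 6.47) with food removed and 7.00 to 7.82 (median 7.45) in the ad lib group. The log2 difference was -1.11 (SE 0.25, adjusted p = 0.0282 from limma). Vldlr, a lipoprotein receptor, was at 9.92 to 10.41 and 9.27 to 9.84 and did not overlap, a difference of 0.57 (SE 0.13, adjusted p = 0.0345). The Trib3 call was lost without any one of food removed replicates 1, 2 and 5 and ad lib replicates 1, 3 and 5 (adjusted p up to 0.0777), and the Vldlr call without any one of food removed replicates 1, 2, 3, 5 and 6 and ad lib replicates 3, 5 and 6 (up to 0.0931). Without the 4 marker arrays Vldlr was at adjusted p = 0.0951 and Trib3 at 0.0198, and with chip position as a covariate both calls were lost (0.474 and 0.262). Atf4 (0.28), its target Asns, asparagine synthetase (-0.08), Ddit3 (-0.26) and Eif2ak4, the kinase that senses uncharged tRNA (-0.24), did not pass.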

How the data were processed

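Total RNA from 12 rats was measured on 1 BeadChip. The authors deposited raw signal intensities with detection p-values computed against negative control probes, the standard error over beads and the number of beads, and a second table of normalised signal intensity on a linear scale with values below 0. The submitters' processing notes name GenomeStudio with no version; the methods name cubic spline normalisation.

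From the raw signals, neqc (limma 3.58.1, R 4.3.3; offset 16) gave background-corrected, quantile-normalised log2 values. Probes reaching detection on 6 or more arrays (p under 0.05; 12196 probes) entered limma's linear model with moderated, two-sided tests, adjusted after Benjamini and Hochberg over all 12196. A gene with several probes was represented by the one with the highest mean signal. Between arrays the log2 signals correlated at 0.934 to 0.993. The raw median was 91.1 to 139.6, 51.25 to 59.64% of probes and 34 to 44 of the transporter probes were detected per array, and the number of arrays limits the precision. Exact permutation tests ran over all assignments of 12 arrays to 6 and 6 (smallest possible p 0.00216), and permutation tests of correlations used 100000 resamples (Python 3.11.15, SciPy 1.17.1). All 53 symbols were found in the RefSeq gene table of GRCr8. Levels of different probes were not compared.

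The members and lists were chosen with earlier results of these data known. Every transporter gene is named, with full values for those with an unadjusted p under 0.05. Alternatives changed the background correction, normalisation, offset, filter, variance model, weights and test, added a replicate block or chip position, or left out arrays. Leaving out the 4 arrays with epididymis markers and the methods' t-test without adjustment were added after the data were seen. The methods' t-test is the unpaired test of the study's general statistics. The labels do not say more than that each sample is separate, so p-values measure the spread between these arrays.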

Additional observations from a re-analysis of the deposited data

Results flagged for a closer look

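Of 80 checks of a transporter gene within a group of 6 arrays, 14 had a single array far from the other 5 by Dixon's criterion (its gap to the nearest, over the whole range). The criterion gives about 1 in 20 for independent, normally spread values. Checks that share an array are not independent, and the share over all tested probes was not computed. Whether the count is particular to these genes was therefore not tested. Of the 14, 10 were on food removed replicate 3, the array with the most epididymis markers.

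On that array Slc1a1 (12.897), Slc36a1 (6.7954), Slc38a5 (14.765), Slc7a1 (7.918), Slc7a4 (8.2024), Slc7a5 (8.1709) and Slc7a8 (6.6167) were above the other 5, and Slc38a6 (7.8636), Slc43a1 (5.6167) and Slc7a6os (9.447) below them. The gap was widest in signal for Slc38a5, where the other food removed arrays ran from 5.9829 to 7.9338.

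In the ad lib group Slc38a5 (7.4932) and Slc7a9 (9.1588) were high in replicate 6, the ad lib array with Lcn5 at 11.15. Slc1a4 was high in ad lib replicate 4 (5.9257, others 4.8132 to 5.191) and Slc43a2 low in ad lib replicate 3 (5.9051, others 6.6048 to 6.8267). Lcn5 was at 5.09 and 6.28 on these 2 arrays, below its values on the 4 marker arrays. The summed signal of the epididymis list was 12470 and 9248 on them, beside 12800 on food removed replicate 4, a marker array.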

How the results depend on the processing

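Of the 40 tested genes, 25 kept their sign under every alternative run and 15 turned under at least 1; Slc6a6 and Slc7a5 passed at an adjusted p under 0.05 under at least 1. The number of transporter genes higher was 0 with a median shift, 2 with array weights, 3 with the methods' t-test unadjusted (and 3 lower), and 0 with chip position in the model; the fits that each lacked 1 array gave 0 to 1. Over all probes 103 passed with a median shift, 840 with array weights, 1909 with the methods' t-test unadjusted, 178 with the replicate block and 32 with chip position, against 301; leaving out each array gave 157 (without ad lib replicate 5) to 483 (without food removed replicate 4). The cause of these shifts was not tested.

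Slc38a5 turned to -0.24 without the 4 marker arrays. Slc7a9 turned to -0.28 with array weights and -0.52 without the 4 marker arrays, and ran from -0.43 to 0.57 when each array was left out. The labels do not say that replicate numbers pair the rats. Deviations of same-numbered arrays correlated at -0.41 to 0.128, which cannot show whether rats were handled in pairs. Calls under the replicate block therefore compare arrays known to share only a number. Detection gave 40 genes, 34 at p under 0.01, 28 on all 12 arrays and 46 on at least 1. Dim probes near the negative controls have compressed differences.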

Other observations

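Some genes outside the 7 families, from the same lists, also had wide spreads. Arg2, the mitochondrial arginase, was detected on 4 arrays and ran from 4.86 to 11.13 with food removed and from 4.52 to 9.94 in the ad lib group. Cltrn, collectrin, a partner of kidney amino acid carriers, was detected on 3 arrays and ran from 4.51 to 10.43 and from 4.42 to 7.30. Cbs, the first enzyme of transsulfuration, ran from 5.02 to 8.96 and from 4.73 to 8.60, with a log2 difference of 0.78 (SE 0.76, adjusted p = 0.678 from limma).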
